A study of Arabidopsis thaliana with 4 samples.

Results

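The tables of genes called different by the authors between *msil2/4* and Col-0 inflorescence stems hold 234 genes, and 6 of them belong to the WRKY transcription factor family, *WRKY18* (AT4G31800), *WRKY38* (AT5G22570), *WRKY46* (AT2G46400), *WRKY51* (AT5G64810), *WRKY62* (AT5G01900) and *WRKY75* (AT5G13080). These 6 were chosen by locus from the 2 tables, *WRKY18* from the 78 down-regulated genes and the other 5 from the 156 up-regulated genes, so the difference between genotypes is what selected them. It is given below as a description, with no test, and so is the contrast of *WRKY18* with the rest. The basal part of mature stems was sampled from untreated plants grown in long days, and mRNA was sequenced in 2 libraries per genotype. Col-0 is the wild-type accession. The *msil2/4* plants are a cross of the T-DNA insertion lines *msil2-1* and *msil4-1*, a single allele combination which the sample labels call a knockdown, and which lacks 2 RNA-binding proteins related to the animal translational regulator Musashi. All values are RPKM, read counts scaled to transcript length and to the number of mapped reads, with a value for each library. A stem is a mixture of tissues, so a change in the share of some cells and a change of RNA within cells cannot be told apart here. Of 8 genes that mark fibers, vessels, phloem or epidermis and 5 that mark leaf, flower or seed, none was in either table, so the tables give no check of the tissue label. The loci of *MSIL2* and *MSIL4* were in neither table as well, so the mutation could not be checked from the values. Values of genes in neither table were not analysed here.

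WRKY proteins are plant transcription factors named after a nearly invariant run of residues at the start of their DNA-binding domain, which is completed by a zinc finger. Most bind the W box, a short DNA element built on the letters TTGAC, which is common in the promoters of defense genes and of *WRKY* genes themselves, so that members of the family regulate each other as well as their targets. Many are induced by pathogens or by salicylic acid, the hormone of systemic acquired resistance, and both activators and repressors of defense are known among them.

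The 6 genes belong to different branches of the family and share the start of the domain. These stretches of 21 bases, read from the TAIR10.1 genome with the RefSeq annotation, encode the 7 residues of that run, written from 5′ to 3′ on the coding strand with the sixth codon in capitals.
WRKY18: tggaggaaatacggaCAAaag
WRKY38: tggaggaaatatggtCAAaag
WRKY46: tggagaaaatatgggCAAaaa
WRKY62: tggaggaaatacggaCAAaag
WRKY51: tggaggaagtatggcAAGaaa
WRKY75: tggaggaaatatggcCAAaag
The sixth codon was CAA, which encodes glutamine, in 5 genes and AAG, which encodes lysine, in *WRKY51*. The stretches of *WRKY18* and *WRKY62* were identical, although these genes lie in different branches, while the group IIc genes *WRKY51* and *WRKY75* differed at the sixth codon. *WRKY18*, a group IIa gene, lies on chromosome 4 from 15382777 to 15385100 on the plus strand in TAIR10.1, with 5 exons, and the stretch is in exon 4. *WRKY38*, *WRKY46* and *WRKY62* are group III genes, whose zinc finger ends in cysteine in place of histidine, the C2HC form, and a search of the translated coding sequences found that form in these 3 genes and the C2H2 form in the other 3. *WRKY38* lies on chromosome 5 from 7495455 to 7496990 on the minus strand, *WRKY46* on chromosome 2 from 19043411 to 19044955 on the minus strand, and *WRKY62* on chromosome 5 from 350925 to 352095 on the minus strand. The group IIc genes *WRKY51* and *WRKY75* lie on chromosome 5 as well, from 25908247 to 25909881 on the plus strand and from 4149738 to 4151201 on the minus strand. In each gene the stretch lay within a coding exon, exon 2 of *WRKY38*, *WRKY46*, *WRKY62* and *WRKY51* and exon 1 of *WRKY75*. The encoded proteins ranged from 145 residues for WRKY75 to 310 residues for WRKY18. WRKY38 and WRKY62 were the closest pair, with 63.3% identity over 60 residues from that run and 36.5% over the whole protein, while WRKY18 shared 32.3% to 45.9% of that domain with the other 5. No stretch of 75 bases of the 6 transcripts, the length of the reads, occurred a second time in the genome, and no annotated gene overlapped any of them, so an exact read of that length fits only 1 of these genes.

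*WRKY18* was lower in *msil2/4* stems and the other 5 genes were higher there, by 3.31-fold (*WRKY46*) to 7.95-fold (*WRKY38*) between the means. *WRKY18*, a pathogen-induced factor that acts together with WRKY40 and WRKY60, measured 278 RPKM in Col-0 replicate 1, 137 RPKM in Col-0 replicate 2, 37.3 RPKM in *msil2/4* replicate 1 and 43.1 RPKM in *msil2/4* replicate 2. Pairs of values below keep this order of the replicates. Both *msil2/4* libraries lay below both Col-0 libraries, and the nearest libraries of the genotypes were 3.19-fold apart. The Col-0 mean was 207 ± 99.2 RPKM (SD, n = 2). The *msil2/4* mean, 40.2 ± 4.07 RPKM (SD, n = 2), was 5.16-fold lower. On the scale of log2(RPKM + 1), the difference was -2.26 with a standard error of 0.44 from a limma fit over the 234 listed genes. The fit draws the error of each gene towards a value common to the listed genes, here and for the standard errors below.

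*WRKY38* and *WRKY62* encode related group III factors that are induced by salicylic acid through the coactivator NPR1 and are known as negative regulators of basal defense. *WRKY38* measured 0.23 and 2.58 RPKM across Col-0 against 11.18 and 11.15 RPKM across *msil2/4*. Its *msil2/4* libraries were nearly identical, while its Col-0 libraries differed 11.2-fold. The mean of *msil2/4* was 7.95-fold that of Col-0, the largest ratio among the 6 genes, and the log2 difference was 2.54 (standard error 0.57). *WRKY62* measured 0.65 and 10.7 RPKM across Col-0 against 19.4 and 30.0 RPKM across *msil2/4*. The genotypes did not overlap, but the nearest libraries, Col-0 replicate 2 and *msil2/4* replicate 1, were only 1.82-fold apart, the smallest gap of the 6 genes. Its log2 difference was 2.52 (standard error 0.94), and it was 1.11 without Col-0 replicate 1 and 3.93 without Col-0 replicate 2.

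*WRKY46*, the remaining group III gene, is induced by salicylic acid and acts with WRKY54 and WRKY70. It measured 5.16 and 7.43 RPKM across Col-0 against 22.8 and 18.8 RPKM across *msil2/4*. Its replicates differed 1.44-fold in Col-0 and 1.22-fold in *msil2/4*, and the log2 difference of 1.59 (standard error 0.35) was the smallest of the 5 higher genes. *WRKY46* was also the member nearest to the limit of the tables, with authors' values per genotype of 6.71 and 19.6 RPKM, a ratio of 2.92 against a limit of 2.83, which is 1.5 on the log2 scale.

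The group IIc genes had the highest mean levels of the 5 in *msil2/4*, 34.8 ± 4.51 RPKM for *WRKY51* and 26.8 ± 0.311 RPKM for *WRKY75* (SD, n = 2). *WRKY51*, which together with WRKY50 mediates the repression of jasmonate responses by salicylic acid, measured 5.0 and 13.2 RPKM across Col-0 against 31.6 and 38.0 RPKM across *msil2/4*, a log2 difference of 1.95 (standard error 0.50). *WRKY75*, which is induced by phosphate starvation and during leaf senescence, measured 2.13 and 6.80 RPKM across Col-0 against 27.0 and 26.6 RPKM across *msil2/4*, a log2 difference of 2.49 (standard error 0.51). For both genes the *msil2/4* libraries lay above both Col-0 libraries, by at least 2.40-fold for *WRKY51* and 3.91-fold for *WRKY75*.

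**Figure D1:**
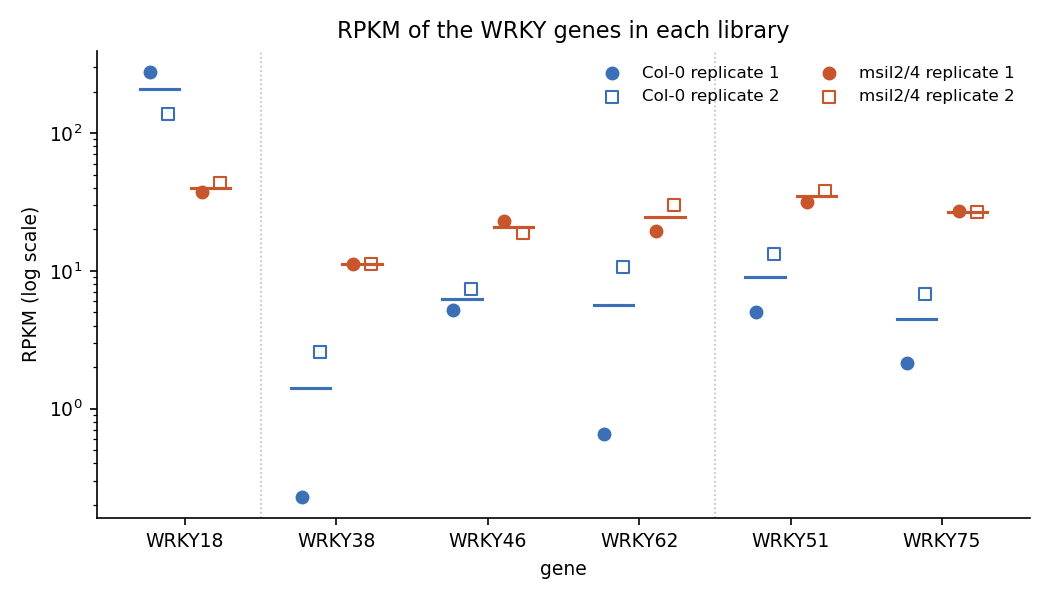
RPKM of the 6 WRKY genes in each library, on a log scale, with filled circles for replicate 1, open squares for replicate 2 and a bar at the mean of each genotype. Only *WRKY18* lies lower in *msil2/4*, at 37.3 and 43.1 RPKM, and the widest spread within a genotype is that of *WRKY38* and *WRKY62* in Col-0.

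The libraries of the genotypes did not overlap for any of the 6 genes, and this held for 99.1% of the 234 listed genes. A gap of at least 1.5-fold between the nearest libraries was present for all 6 genes and for 98.7% of the listed genes. These shares follow from how the tables were made and say nothing particular about the *WRKY* genes. Over the 5 higher genes the median log2 difference was 2.49, against 2.03 over the 156 up-regulated genes. In the order of that table by the size of the log2 difference, *WRKY38*, *WRKY62* and *WRKY75* were at ranks 52, 53 and 54, *WRKY51* at rank 91 and *WRKY46* at rank 133. In an order by the fold of the means, chosen after seeing the data, *WRKY38*, *WRKY75*, *WRKY62*, *WRKY51* and *WRKY46* were at ranks 57, 78, 107, 125 and 147. The middle gene of the 5, *WRKY62*, thus lay in the lower part of the 156, so the higher median depends on the scale of log2(RPKM + 1). *WRKY18* was at rank 16 of the 78 down-regulated genes by the log2 difference and at rank 20 by the fold.

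Because RPKM is scaled by transcript length, levels can also be compared between genes. In Col-0, *WRKY18* was far above the others, with 53.8 times the RPKM of the next gene, *WRKY46*, in replicate 1 and 10.4 times that of the next gene, *WRKY51*, in replicate 2. In *msil2/4* it was still the highest of the 6 but only 1.18 and 1.14 times above *WRKY51*, and the ranges of these 2 genes over the *msil2/4* libraries overlapped. Below it, the order in *msil2/4* by mean was *WRKY51*, *WRKY75*, *WRKY62*, *WRKY46* and *WRKY38*. *WRKY75* overlapped with *WRKY62* and *WRKY62* with *WRKY46*, whereas *WRKY51* stayed above *WRKY75* in both libraries and *WRKY38* stayed below all others. In Col-0, neighbors in the order below *WRKY18* overlapped throughout. *WRKY38* was the lowest gene in all 4 libraries.

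The summed RPKM of the 5 genes without *WRKY18* was 13.2 and 40.7 in the Col-0 libraries and 112 and 124 in the *msil2/4* libraries, 4.39-fold higher on average. The fold was 2.91 without Col-0 replicate 1 and 8.98 without Col-0 replicate 2, alternatives added after seeing the data. *WRKY18* made up 95.5% and 77.1% of the summed RPKM of all 6 genes in the Col-0 libraries and 25.0% and 25.7% in the *msil2/4* libraries. The share thus differed by more between the Col-0 libraries than between the *msil2/4* libraries. The sum of all 6 was 291 and 178 RPKM in Col-0 and 149 and 168 RPKM in *msil2/4*.

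**Figure D2:**
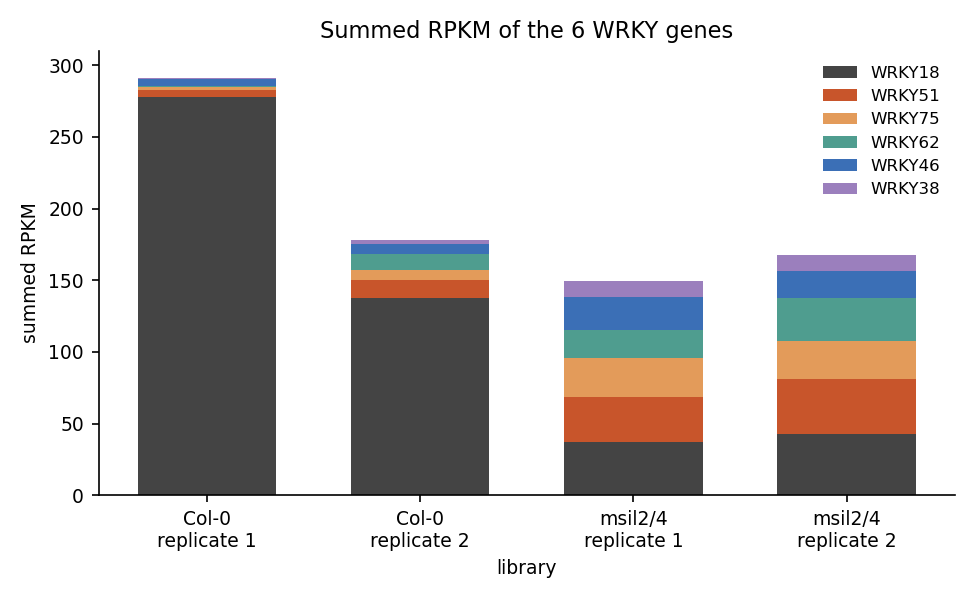
Summed RPKM of the 6 WRKY genes in each library, as bars stacked by gene. *WRKY18* fills 95.5% and 77.1% of the Col-0 bars and 25.0% and 25.7% of the *msil2/4* bars, and the remaining 5 genes add up to 112 and 124 RPKM in *msil2/4*.

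The Col-0 replicates differed from each other for these genes. This is a description as well, since the genes were chosen with these values known. In Col-0 replicate 2 all 5 higher genes were above their level in replicate 1 and *WRKY18* was below it, so that each of the 6 genes was displaced towards its *msil2/4* level in the same library. The same displacement was present for 57.3% of the listed genes, 62.2% of the up-regulated and 47.4% of the down-regulated ones. *WRKY62* had a difference of 2.82 on the scale of log2(RPKM + 1), larger than that of any other listed gene. By plain ratio AT4G38080 differed more, with 0.06 and 1.5 RPKM in the Col-0 replicates. On the scale of log2(RPKM + 1), *WRKY38* had 1.54, *WRKY75* 1.32, *WRKY51* 1.24 and *WRKY46* 0.45, and *WRKY18* -1.01. The median absolute difference over the listed genes was 0.45. For *WRKY62* the difference of 2.82 between wild-type replicates exceeded the difference between the genotype means. Without Col-0 replicate 1, the log2 difference between genotypes was -1.75 for *WRKY18*, 1.76 for *WRKY38*, 1.37 for *WRKY46*, 1.33 for *WRKY51*, 1.11 for *WRKY62* and 1.83 for *WRKY75*, each closer to 0. The *msil2/4* replicates showed no such order, with 3 genes higher and 3 lower in replicate 2, a range from -0.27 for *WRKY46* to 0.60 for *WRKY62*, and a median absolute difference of 0.23 over the 6 genes. Each genotype has only 2 libraries, so whether the Col-0 replicates differ in the plants or in the preparation was not tested.

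**Figure D3:**
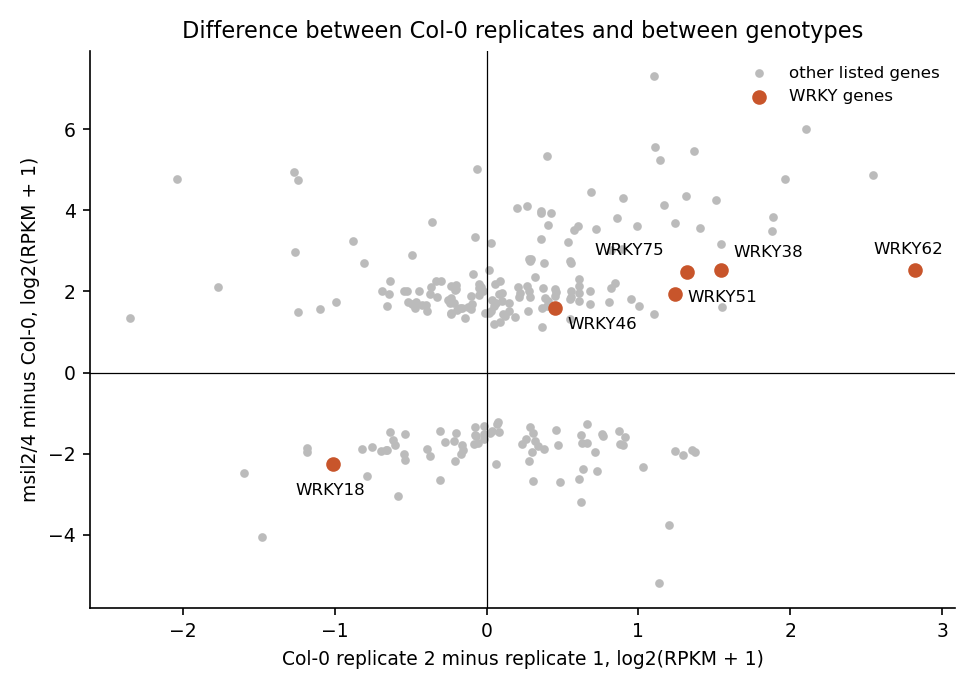
Difference of Col-0 replicate 2 from replicate 1 (horizontal) and of *msil2/4* from Col-0 (vertical), both in log2(RPKM + 1), for the 6 WRKY genes in orange and the other listed genes in gray. The axes share the Col-0 libraries. *WRKY62* lies farthest to the right at 2.82, and *WRKY18* is at -1.01 on the horizontal axis and -2.26 on the vertical axis.

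The depth behind the low values is known only as stated. At the 30 M reads per library that the labels give, if all were mapped, 0.23 RPKM of *WRKY38* in Col-0 replicate 1 would stand for about 9 reads and 0.65 RPKM of *WRKY62* for about 21 reads. All other values of the 5 genes would stand for 52 reads or more, and those of *WRKY18* for 1949 or more. The counting error of the Col-0 replicate 1 values of *WRKY38* and *WRKY62* is thus larger than elsewhere, and the ratios that rest on them are the least certain.

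Genes of salicylic acid signaling were mixed in this respect. Of 27 genes of that pathway, 8 were in the up-regulated table, none in the down-regulated table and 19 in neither, while 0.565% of the 27443 protein-coding genes of the annotation were in the up-regulated table. The list of 27 was written with the called genes known, so its share restates that choice in part and was not tested. The pathogenesis-related gene *PR1*, a marker of the pathway, measured 0.09 and 1.34 RPKM across Col-0, higher in replicate 2 like the 5 *WRKY* genes. Its 0.09 RPKM is below the 0.23 RPKM of *WRKY38* in that library, so its ratio is uncertain as well. *PBS3* was also higher in replicate 2, with 0.89 and 2.33 RPKM across Col-0. The hydroxylase gene *DLO1*, whose product inactivates salicylic acid, measured 9.17 and 9.36 RPKM there and the protease gene *AED1* 20.2 and 19.0 RPKM, nearly the same in both replicates. *DMR6*, whose product likewise inactivates salicylic acid, was lower in replicate 2, with 58.2 and 41.1 RPKM. Over the 8 genes, 5 were higher in Col-0 replicate 2, with a median difference of 0.15 on the scale of log2(RPKM + 1). Among the 19 in neither table were *NPR1* and *SID2*, a gene of salicylic acid synthesis, and a change below the limit of the tables would not be seen.

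RefSeq lists 72 *WRKY* genes, of which 5 were in the up-regulated table, 1 in the down-regulated table and 66 in neither. The 6 listed genes were 8.33% of the family, and 0.842% of all protein-coding genes of the annotation were in either table, whether or not they passed the authors' filters. In group IIa, *WRKY18* was listed without its partners *WRKY40* and *WRKY60*. In group III, 3 of 13 genes were listed, all higher in *msil2/4*, and *WRKY53*, *WRKY54* and *WRKY70* were among the 10 that were not. In group IIc, 2 of 18 genes were listed, both higher, while *WRKY50*, which acts with *WRKY51*, was in neither table. The other branches of the family had no listed gene.

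Among transcriptional regulators in the tables, the *WRKY* genes were the largest group. A list drawn from the annotation holds 27 genes, of which 12 were higher and 15 lower in *msil2/4*. All 4 AP2/ERF genes, 2 bZIP genes and 2 homeodomain-leucine zipper genes of the list were lower. Besides *WRKY*, the families with genes in both tables were MYB, MADS and Aux/IAA. *WRKY18* had the highest mean RPKM of the 27 in Col-0 and the second highest in *msil2/4*, after the ethylene response repressor gene *ERF4* with 182.9 RPKM in Col-0 and 58.2 RPKM in *msil2/4*. The log2 difference of *WRKY18*, -2.26, was smaller in size than those of *ERF024* (-5.18), *FLC* (-3.18), *HAT2* (-2.38) and *ERF073* (-2.34). Of the higher regulators, the MADS-box gene AT1G59930 had the largest log2 difference, 2.70, followed by *WRKY38*, *WRKY62* and *WRKY75*. By the fold of the means, *WRKY38* was still next to it, but *WRKY75* was at rank 5 and *WRKY62* at rank 7 of the 12, behind *AHL20*, *MYB68* and, for *WRKY62*, *MYB13*, and the log2 difference of *WRKY62* was 1.11 without Col-0 replicate 1. The list was assembled from genes already called different, so its directions are not independent evidence.

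**Figure D4:**
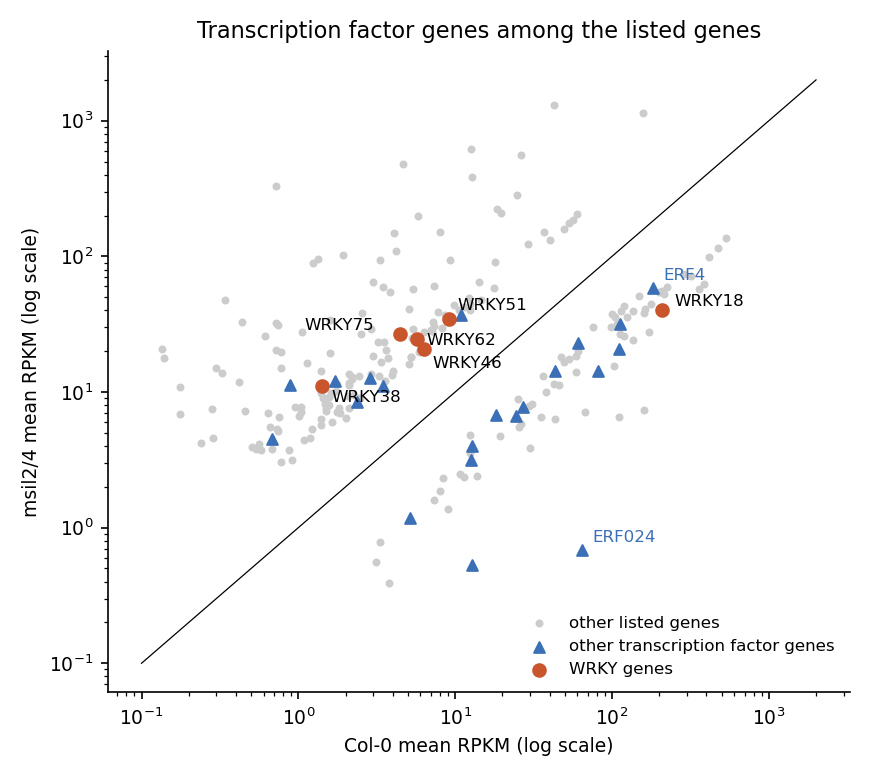
Mean RPKM in Col-0 (horizontal) and in *msil2/4* (vertical), both on log scales, for the 6 WRKY genes, 21 other transcription factor genes and the remaining listed genes, with a line of equal level. *WRKY18* lies at 207 and 40.2 RPKM beside *ERF4* at 182.9 and 58.2 RPKM, and the other 5 WRKY genes lie above the line.

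Over the 4 libraries, the listed gene most like *WRKY38* was *WRKY75*, and the reverse, at a Euclidean distance of 0.16 between their centered profiles of log2(RPKM + 1). *WRKY51* was the third nearest gene of both, and *WRKY38* and *WRKY75* were the nearest genes of *WRKY62*, although at distances of 1.00 and 1.15. No gene had a profile close to that of *WRKY62*. The genes nearest to *WRKY46* were the glutamate decarboxylase gene *GAD4* and the calmodulin-like gene *CML46*, at 0.06 and 0.20, and the gene nearest to *WRKY51* was the trypsin inhibitor gene *ATTI1*, at 0.37. The profile of *WRKY18* was nearest to that of the desiccation-responsive gene *RD29A*, at 0.36. *RD29A* measured 217.9 and 126 RPKM across Col-0 against 23.7 and 32.1 RPKM across *msil2/4*, with the same order of the 4 libraries as *WRKY18*. These likenesses rest on 4 libraries and on genes chosen for a difference. With a pseudocount of 0.1 RPKM, 10 of the 18 nearest genes were kept, the 3 of *WRKY18* included, with *GDPDL3* and *RD29A* both at 0.38. *GAD4* was then no longer among the nearest 3 of *WRKY46*, nor *ATTI1* among those of *WRKY51*, nor *WRKY75* and *WRKY38* among each other's.

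Promoters were read to see whether the genes that are higher in *msil2/4* carry the element that WRKY proteins bind. The W box was searched as TTGACC or TTGACT on both strands from 250 bases before to 50 bases after the annotated start. It was present in 2 of the 6 genes, *WRKY62* with 2 matches and *WRKY75* with 1, a share close to the 32.4% of 27443 protein-coding genes that hold it. The shorter core TGAC, which lies within every W box, was present in all 6 and in 81.6% of all promoters. The 250 bases before the start of the gene with 2 matches, of the gene with 1 match and of *WRKY18*, the gene that was lower, are shown from 5′ to 3′ on the coding strand with the W boxes in capitals.
WRKY62, chr5:352096-352345, minus strand: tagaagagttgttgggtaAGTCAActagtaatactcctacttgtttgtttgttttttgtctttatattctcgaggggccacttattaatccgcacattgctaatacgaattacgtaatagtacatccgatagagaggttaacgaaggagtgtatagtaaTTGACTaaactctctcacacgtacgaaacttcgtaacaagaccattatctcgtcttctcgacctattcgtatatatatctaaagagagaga
WRKY75, chr5:4151202-4151451, minus strand: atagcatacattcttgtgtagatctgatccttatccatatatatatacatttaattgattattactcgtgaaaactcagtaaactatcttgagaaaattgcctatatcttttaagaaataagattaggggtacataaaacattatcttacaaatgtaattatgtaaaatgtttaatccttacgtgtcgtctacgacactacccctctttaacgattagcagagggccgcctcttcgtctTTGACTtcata
WRKY18, chr4:15382527-15382776, plus strand: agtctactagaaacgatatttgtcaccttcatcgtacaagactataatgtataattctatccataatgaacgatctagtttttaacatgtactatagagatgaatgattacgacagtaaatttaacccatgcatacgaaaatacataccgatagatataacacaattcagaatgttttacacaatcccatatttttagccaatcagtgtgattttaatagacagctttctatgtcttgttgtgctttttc
In *WRKY62* the W boxes begin 232 and 91 bases before the start, the first of them on the opposite strand, and in *WRKY75* the W box begins 11 bases before the start. *WRKY18* had no W box within this window, which says nothing of sites farther upstream. *WRKY38*, *WRKY46* and *WRKY51* had neither TTGACC nor TTGACT in the window. The shorter letters TTGAC, on either strand, do occur in each of them, but were not counted over all promoters.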

How the data were processed

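Stem mRNA of Col-0 and *msil2/4* was sequenced as single-end reads of 75 bases. According to the submitters' processing notes and the methods, TopHat2 2.0.7 and Bowtie2 2.3.4 served the authors to map reads on TAIR10, after which they quantified transcripts with Cufflinks 2.2.1, compared genotypes with Cuffdiff and describe a filter on transcripts under 1 RPKM in one of the libraries. In the deposited tables, 64 of the 234 genes were under 1 RPKM in at least 1 library, *WRKY38* and *WRKY62* among them, and none in all 4, so the filter did not require 1 RPKM in every library. The deposited library columns, and an authors' value per genotype, are in RPKM. The log2 fold changes that the authors deposited hold their own comparison and were not used. Total reads are not part of the tables. A step of 0.01 RPKM would be 0.243 to 0.522 reads for the 6 genes at 30 M reads, so whole reads could not be recovered and no count model was run.

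Values were transformed as log2(RPKM + 1) and fitted with limma 3.58.1 in R 4.3.3 over all 234 listed genes, with genotype as the term. For the *WRKY* genes it gives a difference and its standard error, moderated over the listed genes, without a p-value. Members, gene lists and tests were chosen with earlier results of these data known. Genes named besides the 6 and the mutated genes come from the 3 nearest profiles of each and from the gene lists. Some genes of the lists are named although they are in neither table. AT4G38080 is named only for the ratio of its Col-0 replicates. Coordinates and sequences came from the RefSeq annotation of TAIR10.1, not from the tables, with Biopython 1.88. Library kits differ between the sources, NEBNext Ultra II Directional in the labels and TruSeq stranded in the methods. The study calls its replicates biological, but nothing in the labels says whether the 2 libraries of a genotype came from separate plants.

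Alternatives were pseudocounts of 0.1 and 0.01 RPKM, filters at a mean of 1 and 10 RPKM, a replicate block, leaving out each library, the genotype values of the authors, and a minimum gap of 1.5-fold.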

Additional observations from a re-analysis of the deposited data

How the results depend on the processing

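The direction of the difference was the same for each of the 6 genes under every alternative run, as the choice of the genes fixes it. *WRKY38*, whose Col-0 replicate 1 value is the lowest, moved from 2.54 to 3.58 with a pseudocount of 0.1 RPKM and to 3.83 with 0.01 RPKM, and it did not pass the filter at a mean of 10 RPKM. With each library left out in turn, the log2 difference ranged from -2.76 to -1.75 for *WRKY18*, 1.76 to 3.31 for *WRKY38*, 1.37 to 1.82 for *WRKY46*, 1.33 to 2.57 for *WRKY51*, 1.11 to 3.93 for *WRKY62* and 1.83 to 3.15 for *WRKY75*, the lowest and highest each without a Col-0 library. With the authors' values per genotype, the difference of *WRKY62* was 1.75. Of the 234 listed genes, which were selected for this difference so that the count restates the selection, limma called 232 at a Benjamini-Hochberg adjusted p under 0.05, 212 to 226 with a library left out, and 142 of the 144 that passed the filter at a mean of 10 RPKM, where fewer genes were tested. With a replicate block, 234 were called and the differences of the 6 genes were the same. The standard error of each became 0.51, where it was 0.35 for *WRKY46* to 0.94 for *WRKY62* without the block. An error equal for all 6 genes is pooled over the listed genes and does not measure the spread of each gene. Without the block the errors are pooled in part. The replicate SD, pooled over the genotypes, was 0.52 for *WRKY18*, 0.77 for *WRKY38*, 0.26 for *WRKY46*, 0.63 for *WRKY51*, 1.44 for *WRKY62* and 0.66 for *WRKY75*. With 2 libraries per genotype, this SD equals the standard error from the libraries of the gene alone. The deviations of the replicates correlated at 0.07 between genotypes over the listed genes. Whether libraries with the same replicate number were grown or prepared together was not tested, and 2 libraries per genotype cannot decide it. The 2 libraries per genotype and the unknown read totals limit the precision of every value.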

Other observations

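Over the listed genes, the W box letters TTGACC or TTGACT were present, on either strand from 250 bases before to 50 bases after the start, in 67 of 155 promoters of protein-coding genes in the up-regulated table, or 43.2%, and in 26 of 76 in the down-regulated table, or 34.2%, against 32.4% of 27443 promoters of the genome. Among the 72 *WRKY* genes the share was 36.1%, and 16.7% held 2 or more matches, as *WRKY62* does, against 7.7% of all promoters. These shares are counts of letters in a fixed window and were not tested.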
